A study of Homo sapiens with 30 samples.

Results

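The 41 genes described here encode RNA polymerase I and the factors that turn its transcript into ribosomes. They were chosen by name, as a list of ribosome biogenesis genes, from the 54300 gene symbols measured in Jurkat E6-1, a cell line grown from a human T cell leukaemia. The cells were either unedited (WT) or lacked isoform 1 of SLAMF6, a homotypic receptor of T cells (KO). RNA was sequenced at rest (0 h) and 6, 12, 24 and 36 h after adding PMA, a phorbol ester that switches on protein kinase C, together with ionomycin, which lets calcium into the cell. That gave 10 groups of genotype and time with 3 libraries each, 30 in all. Both genotypes shared the same parental line and the same stimulus at each time. The labels give the times without a unit, and hours were taken. The title of the series speaks of overexpressed isoform 3 while its design names the isoform 1 knockout, which was followed. How many edited lines or clones stand behind KO, and whether the 3 libraries of a group are separate cultures, is not stated. The p-values therefore reflect how much these libraries vary, which may be technical.

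RNA polymerase I transcribes one long precursor of the ribosomal RNAs in the nucleolus. Small nucleolar ribonucleoproteins (snoRNPs) modify that precursor, and the processome and later assembly factors fold and cut it into the small and large subunits. The genes of this machinery are known to rise together when resting T cells enter growth, and MYC is known as one of their activators. Jurkat cells differ from resting T cells because they already divide before activation.

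The E-box CACGTG, the core sequence known to be bound by MYC with its partner MAX, was looked for in the RefSeq promoters (GRCh38.p14, from 250 bases before the start to 50 after it). The motif reads the same on both strands. Promoters were found for 33 of the 41 genes, and 13 of those 33 (39.4%) held the motif, against 2548 of all 35116 promoters in the table (7.26%) and 1112 of 11600 promoters of symbols tested here (9.59%). The share was 25.5% for 110 other ribosome biogenesis genes and 4.76% for 63 cytosolic ribosomal protein genes. The sites below belong to the 6 members that rose in KO at 6 h and hold the motif. They are shown because these members rose early and hold the letters, as 6 of the 13 members with the motif and 10 of the 20 without it did. Each line gives the sense strand, 5′ to 3′, with the motif in capitals.
LTV1: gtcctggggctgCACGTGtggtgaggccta
NOP10, upstream site: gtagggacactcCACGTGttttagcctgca
NOP10, site at the start: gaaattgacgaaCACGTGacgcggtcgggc
NOP2: aggtccggattgCACGTGgagggccgc
PNO1: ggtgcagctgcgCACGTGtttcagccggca
UTP14A: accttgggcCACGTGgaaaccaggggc
WDR43: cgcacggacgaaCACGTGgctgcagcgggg
The windows are chr6:143843354-143843383 (LTV1), chr15:34343289-34343318 and chr15:34343130-34343159 (NOP10), chr12:6568242-6568268 (NOP2), chr2:68157885-68157914 (PNO1), chrX:129905914-129905940 (UTP14A) and chr2:28894658-28894687 (WDR43). NOP10 and NOP2 lie on the minus strand and the others on the plus strand. The motif begins 170 bases before the start in one NOP10 site and 11 bases before it in the other. Counting the start as the first base, it begins at base 29 in LTV1, 36 in NOP2, 10 in PNO1 and 4 in WDR43. In UTP14A it begins 241 bases before the start. A match describes letters in a window and shows no binding.

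Total counts, in units of 1000000, ran from 5.635 to 28.234 per library (median 20.532), and 3 libraries were under 10: WT 0 h replicate 2, KO 0 h replicate 2 and WT 36 h replicate 2. The T cell genes CD3D (908 to 2255 counts per 1000000, TMM-scaled, CPM) and LCK (644 to 1200) were high throughout, CD4 was low (0.422 to 12.2), and the erythroid genes HBA1, HBA2 and HBB did not pass 1 CPM in any library. Among the monocyte genes the highest library had 0.311 CPM for LYZ, 1.39 for CD14, 2.93 for CSF1R and 3.59 for ITGAM, and the fibroblast gene COL1A1 reached 4.58 CPM. CD79A, which encodes a chain of the B cell receptor, was at 8.66 to 32.2 CPM in every library. Summed over the whole gene, SLAMF6 was at 21.2 ± 3.4 CPM in WT and 19.3 ± 1.47 in KO at 0 h (SD, n = 3), which does not resolve isoforms and so does not check the edit. Each of the 30 libraries lay nearest to the others of its own group over 9634 symbols. All the same, 4 libraries stood apart within their groups: WT 24 h replicate 3, KO 6 h replicate 2, KO 12 h replicate 1 and KO 24 h replicate 3. Their distances to their own groups (root mean square log2 difference) were 0.413, 0.343, 0.32 and 0.326. The nearest other groups were KO 24 h at 0.481, KO 12 h at 0.38, KO 6 h at 0.358 and KO 36 h at 0.357. So KO 6 h replicate 2 and KO 12 h replicate 1 each had the other's time as the nearest other group. The members' median deviation from the group mean was 0.24, -0.17, 0.31 and 0.28 on the log2 scale in these 4 libraries, so they bear directly on the results and counts are also given without them. The sample titles carry the letter A for WT and B for KO from 0 to 24 h and C for both genotypes at 36 h. If the letter marks a batch, it and the genotype cannot be told apart from 0 to 24 h, while at 36 h the genotypes share the letter. Each comparison of 36 h with 0 or 24 h crosses letters, from A to C in WT and from B to C in KO. The genotype difference in the change to 36 h therefore sets a start with different letters against an end with the same letter, and letter and time cannot be told apart there.

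All 41 members passed the filter on low counts, among 21554 tested symbols. At rest, per length of merged exons, NPM1 (nucleophosmin, a nucleolar chaperone) was the most abundant, at 298 CPM per kb in WT, followed by NOP10 at 215 and NCL (nucleolin) at 180. NPM1 has processed pseudogenes, and how reads shared with them were counted is not known here. The catalytic subunits of RNA polymerase I stood lower, POLR1A at 7.19 and POLR1B at 18.6 CPM per kb. These lengths merge the exons of all annotated transcripts and can exceed the transcript in the cells, so the order depends on them. Without division by length, NCL was at 1250 CPM and NPM1 at 1139 in WT. NOP10 was at 119, POLR1B at 118 and POLR1A at 97.2 CPM. BOP1 was nearly absent from the counts, at 0.366 CPM per kb in WT and 0.509 in KO. Its partners in the PeBoW complex of large subunit assembly, PES1 and WDR12, stood at 18.6 and 14.4 in WT. How reads at the BOP1 locus were counted is not known here, so the low counts may not reflect the transcript. BOP1 never passed 4.32 CPM in any library, so its log2 changes rest on few reads.

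In WT most of the ribosome biogenesis genes fell with activation and stayed low. Summed over the 41 members, the level was 8549, 7823 and 8400 CPM in the 3 libraries at 0 h. It was 6675, 6823 and 6753 CPM at 6 h, 5616, 5297 and 5051 at 12 h, and 5690, 4817 and 5472 at 36 h. The libraries at each of these later times all lay below those at 0 h. At 24 h replicates 1 and 2 had 4882 and 4856 CPM, while replicate 3, one of the libraries standing apart, had 6323. In bulk RNA fewer cells with a transcript and less of it per cell cannot be told apart.

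Of the 41 members, 11 were called lower in WT at 6 h (10.5% of all tested symbols were) and 1 higher (11.8%), with a median log2 change of -0.19 against 0.03 for all tested symbols. At 12 h 32 were called lower (15.6% of all) and none higher, with a median of -0.58 against 0.12. At 24 h 32 were lower (17.0% of all) and at 36 h again 32 (19.0%), with none higher (17.3% and 20.1%) and medians of -0.53 and -0.55 against 0.03 and 0.01. Where no member was called higher by edgeR, DESeq2's Wald test gave 0 as well, and 0 were higher at an unadjusted p under 0.05. The 4 comparisons share the 0 h libraries. The 3 WT libraries lay wholly below those at 0 h for 35 members at 12 h (21.1% of all symbols), 34 at 24 h (21.2%) and 33 at 36 h (24.0%). In all, 27 members were called lower at 12, 24 and 36 h alike, a count for which the share of all symbols was not computed. Without the 4 libraries that stand apart, 19 members were lower at 6 h (12.8% of all symbols in that fit). In the same fit 35 were lower at each of 12, 24 and 36 h (17.5%, 16.3% and 19.1%). Without WT 36 h replicate 2, one of the shallow libraries, 21 were lower at 36 h.

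In KO 19 of the genes rose first. The summed level was 7274, 6375 and 7394 CPM at 0 h and 8795, 7440 and 8545 at 6 h, so that all 3 libraries at 6 h were above those at rest. It was 7000, 5070 and 5353 CPM at 12 h and 5499, 5565 and 7423 at 24 h, where the highest library in each group was one that stands apart. That library lay above the lowest resting library at 12 h and above all 3 resting libraries at 24 h. At 36 h the summed level was 7079, 6670 and 7222 CPM, within the range of rest.

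At 6 h in KO 19 members were called higher (14.0% of all symbols) and 2 lower (13.2%), with a median log2 change of 0.37 against 0.03 for all symbols. Of the 19, 1 gene was also called higher in WT at 6 h, DDX10, a helicase of the small subunit processome. That call was not stable. No member was higher in WT at 6 h with upper-quartile factors (10.2% of all symbols) or without the 3 shallow libraries (9.35%). The same held in 5 of 6 fits with 1 library left out. At 12 h 15 members were lower (13.7%) and 1 higher (14.1%), with a median of -0.22. At 24 h 7 were lower (16.7%) and 3 higher (16.1%), with a median of -0.08. At 36 h 10 were higher (18.6%) and 5 lower (18.0%), with a median of 0.07. The share called lower at 24 h was close to the background, while the shares called higher at 24 h and lower at 36 h were below it. Without the 4 libraries that stand apart, 26 were higher at 6 h (12.6% of all in that fit), 24 lower at 12 h (14.0%), 18 lower at 24 h (15.1%) and 14 higher at 36 h (19.0%). Without KO 0 h replicate 2, 4 members were higher at 36 h. The 3 shallow libraries left out, 4 were higher there too, below the share of all symbols in that fit (15.7%).

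**Figure D1:**
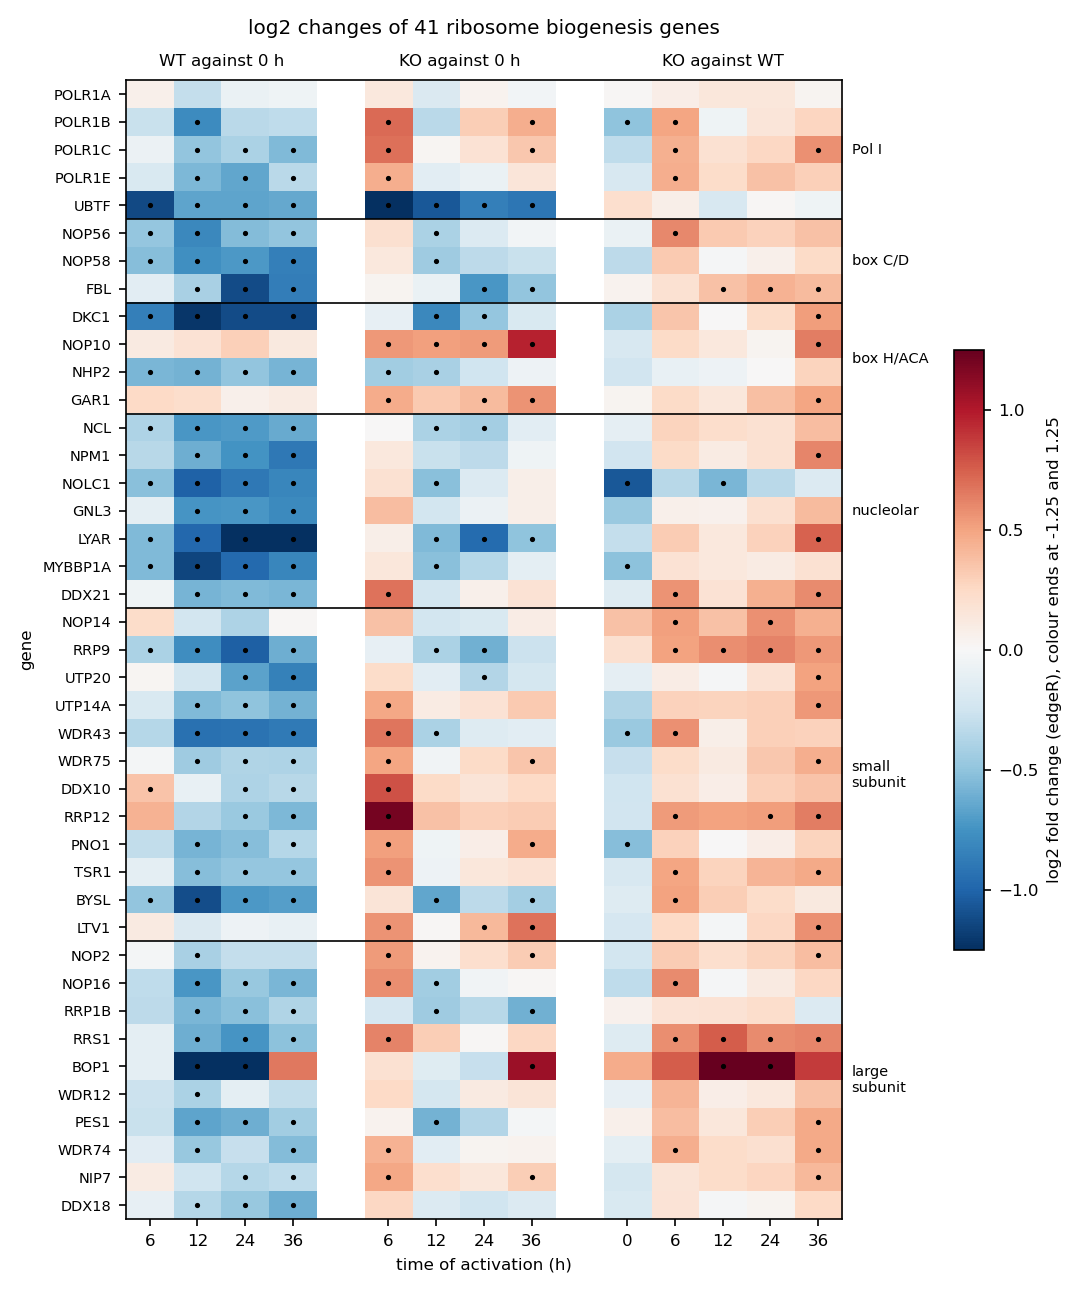
Log2 fold changes of the 41 genes, by role, for WT and KO at each time against 0 h and for KO against WT at each time. Dots mark genes called at an adjusted p under 0.05. The WT block is blue from 12 h on (32 genes lower at each time) and the KO block is red at 6 h (19 genes higher).

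**Figure D2:**
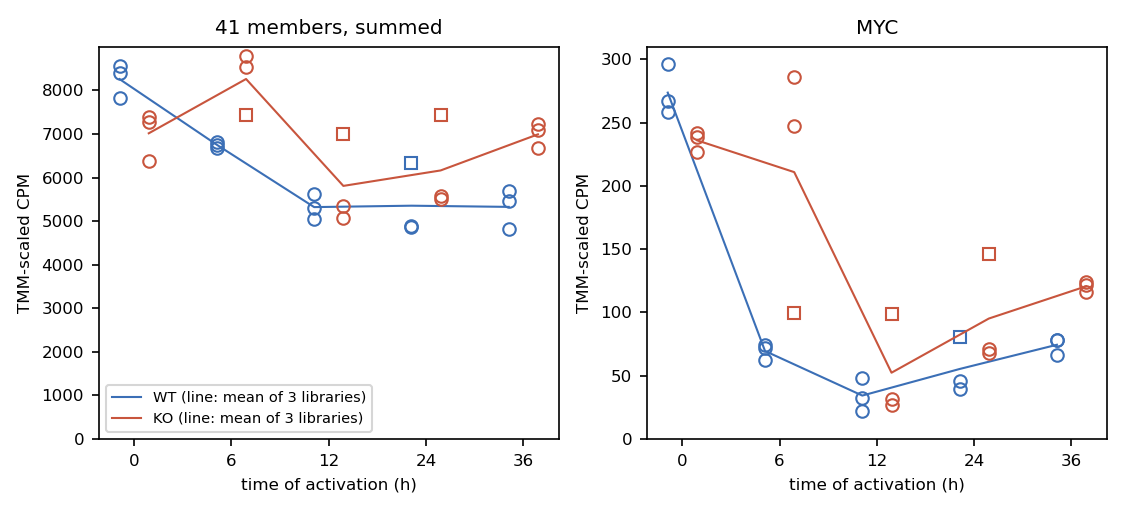
Summed level of the 41 genes and level of MYC in every library, in TMM-scaled CPM, by time. Lines join group means of 3 libraries, and squares mark the 4 libraries that stand apart from their groups. WT falls from a mean of 8257 to 5322 CPM by 12 h, while KO rises from 7015 to 8260 CPM at 6 h before falling.

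Among the RNA polymerase I genes, POLR1C, a subunit shared with RNA polymerase III, had the smallest joint p for a genotype difference. Its levels in WT were 88.8, 86.9 and 91.3 CPM at 0 h, 84.1, 88.8 and 82 at 6 h and 68.1, 55 and 59.1 at 36 h. In KO they were 72.7, 68.7 and 72.4 CPM at 0 h, 123, 112 and 111 at 6 h and 87.8, 88.4 and 94.6 at 36 h. KO libraries lay below WT at rest and above WT at 6 and 36 h, without overlap. The log2 change from 0 to 6 h was -0.07 in WT (adjusted p = 0.782) and 0.69 ± 0.131 (SE) in KO (adjusted p = 9.28e-05), and the difference of 0.76 ± 0.185 between them passed the test (adjusted p = 0.0158). At 36 h the difference in the change was 0.89 ± 0.186 (adjusted p = 0.00203).

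POLR1B, the second largest subunit and part of the catalytic core, was lower in KO at rest, at 84.3, 79.1 and 87.4 CPM against 118, 114 and 123 in WT. At 6 h it stood at 162, 97 and 153 CPM in KO and 95.3, 101 and 97.3 in WT. The KO libraries at 6 h overlapped WT through replicate 2 alone, which stands apart in other respects too. It rose by 0.71 in KO (adjusted p = 0.000537) and its value in WT was -0.28 (adjusted p = 0.222), a difference of 0.99 ± 0.218 (adjusted p = 0.00742).

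POLR1E, a subunit particular to RNA polymerase I, rose at 6 h in KO by 0.45 (adjusted p = 0.00837), and fell in WT by 0.65 at 24 h (adjusted p = 0.000187). POLR1A, the largest subunit, was not called in any of the 8 comparisons with rest, with values from -0.30 to 0.13.

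UBTF, the upstream binding factor that sits on active ribosomal DNA, went the other way from the polymerase subunits in KO. It was at 144, 144 and 147 CPM in WT at 0 h and 64.9, 60.9 and 72.7 at 6 h, and at 190, 141 and 170 in KO at 0 h and 60.8, 74.1 and 73.5 at 6 h. In both genotypes every library at 6 h was below every library at rest. It fell by 1.13 in WT and by 1.27 in KO at 6 h (adjusted p = 1.79e-09 and 8.84e-11), and was called lower at each later time in both. The difference between genotypes in this change was -0.14 ± 0.16 at 6 h (adjusted p = 0.771).

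The snoRNP proteins did not all move together, within a particle or between particles. NOP56 and NOP58 form the core of the box C/D particles that guide ribose methylation, and FBL is their methyltransferase. NOP56 was at 284, 249 and 285 CPM at 0 h and 195, 189 and 202 at 6 h in WT, and at 276, 217 and 279 and then 328, 249 and 312 in KO. At 6 h all KO libraries were above all WT libraries, by 0.60 ± 0.137 (adjusted p = 0.00294), and the change from rest differed by 0.68 ± 0.193 (adjusted p = 0.0441). NOP58 fell in WT at every time, from 417, 428 and 382 CPM at 0 h to 230, 223 and 226 at 36 h (log2 change -0.85, adjusted p = 6.58e-06). Its KO libraries at 36 h, at 254, 255 and 293 CPM, were also below those at rest (319, 327 and 328), but the change of -0.28 missed the threshold (adjusted p = 0.121). FBL fell late in both genotypes, by 1.12 in WT and by 0.73 in KO at 24 h (adjusted p = 1.01e-11 and 8.45e-08), and was higher in KO than in WT at 12, 24 and 36 h by 0.37, 0.43 and 0.40.

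In the box H/ACA particle, which guides pseudouridylation, the synthase DKC1 and its small partners did not move together. DKC1 was at 438, 390 and 437 CPM in WT at 0 h and 241, 238 and 220 at 6 h, a fall by 0.85 (adjusted p = 7.57e-05). In KO it was at 341, 280 and 335 CPM at 0 h and 318, 261 and 314 at 6 h, where the groups overlapped (-0.10, adjusted p = 0.704). At 36 h KO libraries stood at 277, 265 and 295 CPM and WT libraries at 210, 169 and 203, and the change from rest differed by 0.92 ± 0.22 (adjusted p = 0.00602). NHP2 fell in WT at every time (by 0.57 at 6 h) and fell in KO at 6 and 12 h (by 0.43 at 6 h).

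NOP10, the smallest protein of the particle, rose in KO. Its libraries were at 110, 82.1 and 119 CPM at 0 h, 147, 167 and 142 at 6 h, and 216, 186 and 205 at 36 h. In WT they were at 131, 104 and 123 CPM at 0 h and 148, 109 and 131 at 36 h, which overlap. The change at 36 h was 0.96 ± 0.16 in KO (adjusted p = 9.56e-06) and 0.12 in WT (adjusted p = 0.612), a difference of 0.84 ± 0.225 (adjusted p = 0.0152). GAR1, another partner of DKC1, also rose in KO, by 0.46 at 6 h and 0.56 at 36 h, and was not called in WT (0.25 and 0.10).

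Of the 7 nucleolar proteins outside these particles, all were called lower in WT at 12, 24 and 36 h. LYAR, a nucleolar zinc finger protein, fell most in WT at 36 h: 95, 99 and 85.2 CPM at 0 h and 31.2, 29.8 and 34.6 at 36 h (log2 change -1.54, adjusted p = 3.82e-09). In KO it went from 70.9, 74.7 and 80.6 CPM to 54, 49.8 and 56.2, a fall by 0.50 (adjusted p = 0.0158). The genotypes did not overlap at 36 h, and the difference in the change was 1.04 ± 0.235 (adjusted p = 0.00403). DDX21, an RNA helicase that works at ribosomal DNA and on snoRNAs, rose in KO at 6 h from 213, 222 and 215 to 388, 241 and 409 CPM (0.68, adjusted p = 0.00207), whereas the WT libraries at 6 h, at 241, 227 and 236, overlapped rest at 237, 255 and 236. KO 6 h replicate 2 again held the low value.

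NOLC1, a chaperone of snoRNPs, differed between the genotypes before activation. It was at 455, 409 and 440 CPM in WT and 216, 198 and 211 in KO at 0 h. With no overlap, KO was lower by 1.06 ± 0.172 on the log2 scale (adjusted p = 0.000102), the widest gap among the members at rest. WT then fell to 232, 213 and 202 CPM at 12 h and KO stood at 201, 112 and 124, still lower (log2 difference -0.57, adjusted p = 0.0277). At 36 h WT was at 276, 215 and 247 CPM and KO at 205, 206 and 246, which overlap. MYBBP1A, a nucleolar repressor of transcription, was lower in KO at rest as well, at 91.4, 95.5 and 98.5 CPM against 130, 140 and 135 (log2 difference -0.51, adjusted p = 0.0412).

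Of the 12 small subunit factors, 8 were called higher in KO at 6 h and none lower, with a median of 0.50. RRP12, an assembly and export factor, rose most of the 41: 123, 109 and 116 CPM at 0 h and 316, 198 and 289 at 6 h, a change of 1.20 ± 0.171 (adjusted p = 1.11e-06). In WT it was at 141, 130 and 142 CPM at 0 h and 180, 176 and 198 at 6 h, where the libraries did not overlap but the change of 0.43 missed the threshold (adjusted p = 0.0689). The difference of 0.77 ± 0.239 between these changes missed it too (adjusted p = 0.071).

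WDR43, a scaffold protein of the processome, had the smallest joint p of the small subunit group (adjusted p = 0.00354). In WT it fell from 269, 264 and 247 CPM at rest to 199, 214 and 194 at 6 h and 149, 140 and 122 at 12 h. In KO it went from 186, 195 and 186 CPM to 330, 258 and 313 at 6 h and back to 185, 125 and 120 at 12 h. The genotypes did not overlap at rest, with KO lower by 0.46, nor at 6 h, with KO higher by 0.57 ± 0.135 (adjusted p = 0.00434). The difference in the change to 6 h was 1.03 ± 0.191 (adjusted p = 0.00134), the widest of the members called there.

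PNO1, which escorts the late small subunit precursor, repeated this order. It stood at 104, 123 and 98.4 CPM in WT and 73.1, 78.2 and 73.3 in KO at rest, then at 83.2, 91.2 and 86.6 in WT and 113, 101 and 105 in KO at 6 h. Groups did not overlap at either time, and the change differed by 0.82 ± 0.181 (adjusted p = 0.00742). LTV1, an assembly factor of the small subunit, was not called in WT at any time, while in KO it went from 123, 111 and 126 CPM at rest to 199, 169 and 210 at 36 h (0.68, adjusted p = 0.000166).

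RRP9, a protein of the U3 snoRNP, and BYSL, which acts late in small subunit assembly, mainly fell. RRP9 dropped in WT from 95.1, 105 and 141 CPM at rest to 59.9, 57 and 50.8 at 24 h (log2 change -1.02, adjusted p = 4.22e-08). In KO it went from 119, 128 and 145 to 87.2, 83.6 and 87.7 CPM (-0.60, adjusted p = 0.000199), and was higher than in WT at each of 6, 12, 24 and 36 h by 0.50 to 0.62. BYSL fell by 1.11 in WT and by 0.65 in KO at 12 h (adjusted p = 1.31e-06 and 0.00178).

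Among the 10 large subunit factors, RRS1, which helps to load a ribonucleoprotein particle into the large subunit, separated the genotypes at every time after rest. WT libraries were at 29.4, 34.3 and 31.9 CPM at 0 h, 28.7, 32.3 and 26.7 at 6 h and 23.2, 18.2 and 21.4 at 12 h. KO libraries were at 25.6, 29.8 and 30.3 CPM at 0 h, 49.2, 38.1 and 43.8 at 6 h and 37.7, 33.4 and 35.1 at 12 h. The genotypes overlapped at rest and at no later time, and KO was higher by 0.58, 0.76, 0.59 and 0.61 at 6, 12, 24 and 36 h (adjusted p = 0.00549, 0.000385, 0.00682 and 0.00315). RRS1 was the only member whose change from rest differed between genotypes at each of the 4 times. Without the 4 libraries that stand apart neither value at 24 h was called: KO stood higher by 0.29 (adjusted p = 0.299) and the change differed by 0.45 (adjusted p = 0.196).

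NOP16, a nucleolar large subunit factor, rose in KO at 6 h from 106, 109 and 99.8 to 171, 126 and 175 CPM (0.58, adjusted p = 0.00327), and in WT went from 132, 130 and 130 to 103, 115 and 95.7 CPM (-0.32, adjusted p = 0.132). The difference of 0.91 ± 0.214 passed the test (adjusted p = 0.0127). NIP7, which works with the exosome on precursor processing, rose in KO by 0.48 at 6 h and fell in WT by 0.36 at 24 h. RRP1B, a nucleolar protein of large subunit maturation, fell in both genotypes at 12 h, by 0.57 in WT and by 0.44 in KO, and was the large subunit factor called lower in KO at 36 h (-0.60).

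BOP1 had the widest differences between genotypes, but at very low levels. It was at 0.29, 0.289 and 0.929 CPM in WT and 1.31, 2.5 and 1.35 in KO at 12 h, with a log2 difference of 1.78 ± 0.439 (adjusted p = 0.00635). At 24 h it was at 0.471, 0.78 and 0.254 CPM in WT and 1.4, 2.17 and 1.14 in KO (1.66, adjusted p = 0.015). Groups did not overlap at either time, and PES1 and WDR12, its partners, were not called at 12 or 24 h (0.14 and 0.08 at 12 h).

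**Figure D3:**
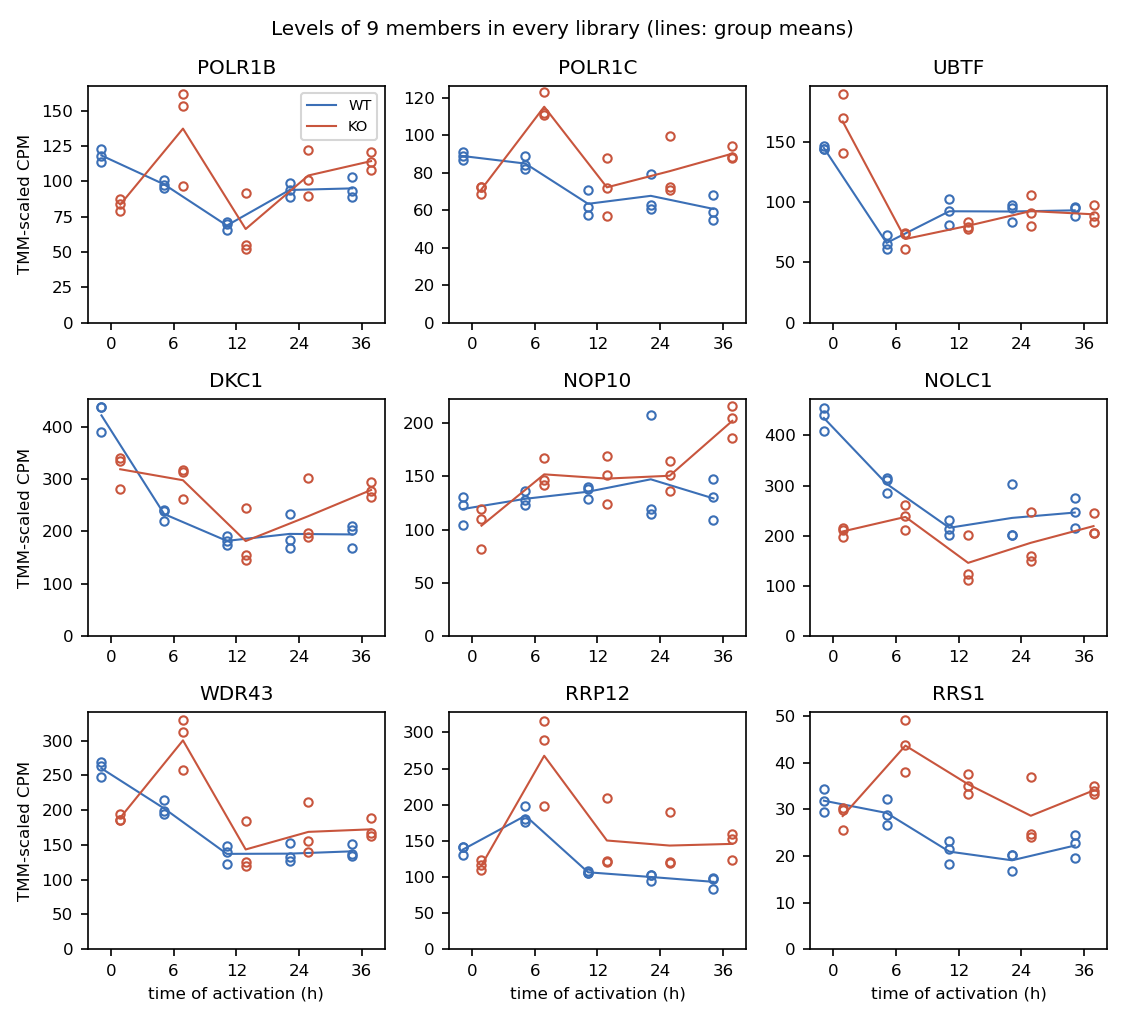
Levels of 9 of the genes in every library, in TMM-scaled CPM, for WT and KO by time, with lines through group means. POLR1B, POLR1C, WDR43, RRP12 and RRS1 peak at 6 h in KO, UBTF falls in both genotypes, NOP10 is highest at 36 h in KO, and NOLC1 is lower in KO at rest.

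Set against WT at the same time, the median of these genes was lower in KO at rest and higher at 6, 24 and 36 h, while at 12 h it ran from -0.01 to 0.17 over the settings for which it was computed. At 0 h 5 members were lower in KO (3.11% of all symbols) and none higher (2.96%): NOLC1, PNO1, MYBBP1A, POLR1B and WDR43. Leaving out any 1 of the 6 libraries at 0 h brought the 5 to 1 or 2. The median over the 41 was -0.20 against -0.01 for all symbols, and 21 members had all KO libraries below all WT libraries (12.8% of all symbols). At 6 h 14 were higher (5.21%) and none lower (4.76%), with a median of 0.32 against -0.01, and 27 had no overlap with KO higher (14.5%). At 12 h 4 were higher (6.05%) and 1 lower (5.52%), with a median of 0.14, and 7 had no overlap with KO higher (15.0%), a share near the background. At 24 h 6 were higher (4.97%) and none lower (4.76%), with a median of 0.26, and 9 had no overlap with KO higher (11.8%). At 36 h 20 were higher (6.95%) and none lower (6.52%), with a median of 0.40 against 0, and 32 did not overlap (16.4%). The counts of 0 are those of the main edgeR fit, and DESeq2's Wald test gave 0 in the same directions. An edgeR fit of the compared groups alone gave 1 lower at 6 h, and one with a replicate block gave 1 lower at 6 h and 1 at 24 h. At an unadjusted p under 0.05 1 member was higher at 0 h, and 1, 0 and 0 were lower at 6, 24 and 36 h.

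Without the 4 libraries that stand apart the number of members that differed was 13 lower at 0 h (5.08% of all in that fit), 26 higher at 6 h (5.83%), 4 higher and 2 lower at 12 h (7.16% and 5.56%), 4 higher and 1 lower at 24 h (4.31% and 3.43%) and 32 higher at 36 h (8.86%). The medians were then -0.20, 0.35, -0.01, 0.23 and 0.40, so the positive median at 12 h was lost, where KO 12 h replicate 1 is the library left out. That median was also 0.06 with DESeq2 size factors and 0.01 with upper-quartile factors. Without KO 6 h replicate 1 alone, 2 members were higher at 6 h. Without the 3 shallow libraries 1 member was lower at 0 h (1.53%) and 11 were higher at 36 h (4.10%), with medians of -0.18 and 0.31.

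**Figure D4:**
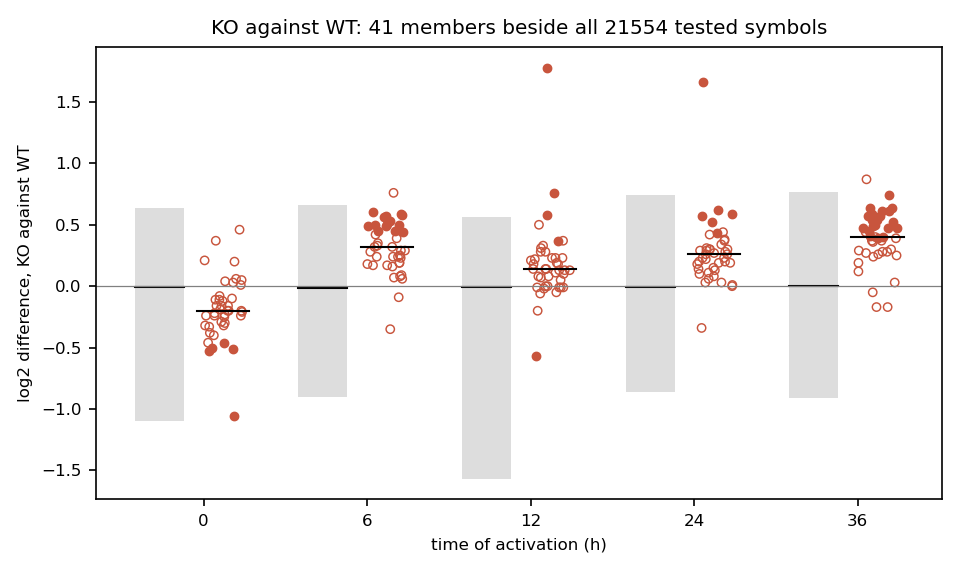
Log2 difference of KO against WT at each time for the 41 genes (circles, filled where called at an adjusted p under 0.05), beside the range from the 10th to the 90th percentile of all 21554 tested symbols (grey bar). Black lines are medians. The genes' median moves from -0.20 at 0 h to 0.32 at 6 h and 0.40 at 36 h, while the median of all symbols stays between -0.01 and 0.

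The test of the difference itself, the change from 0 h in KO less that in WT, called 8 members at 6 h (1.64% of all symbols were called higher), 1 at 12 h (1.42%), 3 at 24 h (1.84%) and 24 at 36 h (4.71%), all of them higher in KO. None was called lower, where the background was 1.37%, 0.650%, 1.70% and 4.62%. DESeq2's Wald test gave 0 lower too, and at an unadjusted p under 0.05 edgeR gave 0, 1, 0 and 0. The count at 36 h is the one whose comparison crosses the letters in the titles. The medians over the 41 were 0.52, 0.38, 0.47 and 0.61, against medians of 0 to 0.01 for all symbols. These 4 tests share the 0 h libraries of both genotypes, where the members already stood lower in KO, so a lower start adds to each of them. Over the 4 times jointly 10 members were called (9.84% of all symbols): DKC1, RRS1, NOP16, NIP7, LYAR, POLR1C, POLR1B, PNO1, UTP14A and WDR43. Without the 4 libraries that stand apart 25 were called at 6 h (2.96%), 1 at 12 h (2.77%), 18 at 24 h (2.81%) and 32 at 36 h (7.28%). Without the 3 shallow libraries, 2 of them at 0 h, 3 were called at 6 h (0.885%), 1 at 12 h (0.911%), 0 at 24 h (1.06%) and 3 at 36 h (1.74%), with medians of 0.54, 0.38, 0.47 and 0.53.

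From one time to the next, the fall in KO lay between 6 and 12 h, and that in WT was spread over the first 12 h. In KO 26 members fell in that step (5.76% of all symbols) and none rose (5.08%), with a median of -0.55, and in WT 15 fell (5.64%) and 1 rose (3.85%), with a median of -0.36 after -0.19 from 0 to 6 h. With upper-quartile factors the WT medians were -0.26 from 0 to 6 h and -0.25 from 6 to 12 h, with 15 and 5 members lower. The gene that rose was UBTF, by 0.48. POLR1B and WDR43 fell by 1.05 and by 1.07 in KO. From 12 to 24 h, 1 member rose (7.60%) and 3 fell (7.25%) in WT, and 2 rose (6.28%) and 1 fell (8.20%) in KO. From 24 to 36 h, 2 rose in WT (4.62%) and 1 in KO (4.07%), and none fell (2.57% and 3.35%). BOP1, at its low level, was among those that rose in both.

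Of the other genes of the pathway, 126 in 5 lists, 54 were higher and 8 lower in KO at 6 h (median 0.24, with 14.0% and 13.2% of all symbols called). The lists did not do the same there. The small subunit list had 23 of 44 higher and none lower (median 0.33), the large subunit list 23 of 47 higher and 3 lower (0.30), and the RNA polymerase I list 4 of 10 higher and none lower (0.24). In snoRNP assembly 3 of 10 were higher and 3 lower (-0.05), and in the RNA exosome 1 of 15 was higher and 2 lower (-0.01). In WT at 36 h 8 of the 126 were higher and 70 lower (median -0.39, with 20.1% and 19.0% of all symbols called). Against WT, KO was higher for 26 and lower for 2 at 6 h (median 0.21, 5.21% and 4.76% of all) and higher for 39 and lower for none at 36 h (median 0.26, 6.95% and 6.52%). NOL10 and KRR1, small subunit factors, rose in KO at 6 h by 1.01 and 0.97, and PPAN, a large subunit factor, rose by 0.94. CD3EAP, a subunit of RNA polymerase I, fell in WT by 2.08 and in KO by 1.12 at 12 h. SHQ1, a chaperone of DKC1, fell at every time, by 2.15 in WT and by 1.79 in KO at 36 h.

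The 79 cytosolic ribosomal protein genes, the building blocks that these factors assemble, did not share the early rise. None was called in either genotype at 6 h (medians -0.04 in WT and 0.04 in KO), though 3 were higher in KO than in WT at that time (5.21% of all symbols). At 36 h 33 were lower in WT (median -0.29, 19.0% of all), and 5 were higher and 1 lower in KO (median 0.07, 18.6% and 18.0%). In KO against WT at 36 h 51 were higher (6.95%) and none lower (6.52%), with a median of 0.49.

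MYC itself was at 258, 296 and 267 CPM in WT at 0 h and 71.8, 62.7 and 74.2 at 6 h, and at 239, 227 and 242 in KO at 0 h and 286, 99.6 and 247 at 6 h. Every KO library at 6 h was above every WT library, with replicate 2, which stands apart, the lowest in KO. MYC fell by 1.97 in WT at 6 h (adjusted p = 5.47e-05) and its change in KO was -0.16 (adjusted p = 0.788), a difference of 1.81 ± 0.484 (adjusted p = 0.0315). At 36 h it was at 78.3, 66.8 and 78.4 CPM in WT and 122, 116 and 124 in KO, which did not overlap, but the log2 difference of 0.69 missed the threshold (adjusted p = 0.2). MYCN, its relative that binds the same motif, was lower in KO at 6 h, at 5.99 ± 0.77 CPM in WT and 1.89 ± 0.839 in KO (SD, n = 3; log2 difference -1.67, adjusted p = 0.000261). It was lower in KO already at rest (log2 difference -1.82, adjusted p = 0.00497) and rose in both genotypes by 6 h, by 1.80 in WT and 1.95 in KO, a difference of 0.15 (adjusted p = 0.933). MXD3 and MXD4, antagonists of MYC, were lower in KO at 6 h by 0.95 and 0.73 on the log2 scale. Their changes from rest differed by -1.59 and -1.07 (adjusted p = 0.00104 and 0.00565). MXD3 was higher in KO at rest (0.65, adjusted p = 0.0493), so its start is part of its difference. MXD1, a relative of both, was lower in KO at 6 h too (-0.47, adjusted p = 0.0304). MXI1, MNT and MGA of the same network were not called there (0.40, 0.31 and -0.02). The part of these factors in the members' change was not tested. Members with and without the E-box had medians of 0.37 and 0.41 in KO at 6 h (13 and 20 genes), -0.55 and -0.58 in WT at 12 h, and 0.44 and 0.40 for KO against WT at 36 h.

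The 22 genes of the S phase list fell in both genotypes, with medians of -0.72, -1.26, -1.82 and -1.78 in WT and -0.72, -1.38, -2.18 and -1.47 in KO at 6, 12, 24 and 36 h. At 6 h, where the ribosome biogenesis genes differed, the S phase median for KO against WT was -0.11 with 1 gene lower (4.76% of all symbols) and none higher (5.21%), and at 36 h it was 0.16 with 3 higher (6.95%) and none lower (6.52%). The share of mitochondrially encoded mRNA was between 1.464 and 1.956% in all libraries. The part of cell cycle position in the members' changes was not tested.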

How the data were processed

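The authors deposited 1 file for each library, holding expected counts by gene symbol. Of 54300 symbols, 195 had fractional values (0.177% of values, no member), which were rounded. Per the submitters' processing notes, STAR, cutadapt and DESeq2 were used, with GRCh37 and hg19 as builds. Which program and annotation gave the counts is not given in the sources used here. Whether strand was used in counting is not stated, so reads of overlapping antisense genes could not be told apart. A table of the whole series held the same values for these libraries and served only for that comparison.

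filterByExpr (minimum count 10) kept 21554 symbols, and libraries were scaled with TMM in edgeR 4.0.16 (R 4.3.3). All 30 libraries entered 1 quasi-likelihood fit with 10 group means, followed by F tests. P-values were adjusted by Benjamini-Hochberg over all tested symbols in each comparison. Genes with an adjusted p under 0.05 were called. There were 23 single comparisons and 1 joint test of the genotype difference over 4 times. Levels are TMM-scaled CPM, and changes are log2 values of the fit. The script was tested on simulated data. Libraries were called apart where the chi-square per degree of freedom with both others of their group was over 20 (20.587 to 32.272, against at most 13.04 for other pairs).

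Depth was 5.635 to 28.234 in units of 1000000 counts, and 3 libraries under 10 of these units are called shallow. Exon lengths and gene models are those of GENCODE 29 and promoters those of RefSeq on GRCh38.p14, matched by symbol, which is not the authors' build. The members and lists were chosen with earlier results of these data known. Members given library by library were, within each role group, those with the highest and lowest mean change with activation and the smallest joint p, and those among the 3 highest or lowest called differences between genotypes at a time. POLR1B and MYC were added to these after their values were seen. The fit without the 4 libraries that stand apart was chosen after seeing the data. Alternatives were DESeq2 1.42.0 size factors and Wald test, upper-quartile factors, no filter, fits of the compared groups alone, a replicate block, and leaving out libraries.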

Additional observations from a re-analysis of the deposited data

Results flagged for a closer look

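A member is listed here where the change from 0 h differed between the genotypes by the test of that difference itself (adjusted p under 0.05 in edgeR). Values are log2 differences, the change in KO less the change in WT. At 6 h the members were WDR43 (1.03), POLR1B (0.99), NOP16 (0.91), PNO1 (0.82), POLR1C (0.76), RRS1 (0.74), NOP56 (0.68) and POLR1E (0.65). At 12 h the member was RRS1 (0.92). At 24 h they were WDR43 (0.76), RRS1 (0.75) and UTP14A (0.67). At 36 h they were LYAR (1.04), DKC1 (0.92), UTP14A (0.92), POLR1C (0.89), NOLC1 (0.89), RRP12 (0.88), GNL3 (0.86), NPM1 (0.85), NOP10 (0.84), PNO1 (0.81), RRS1 (0.77), LTV1 (0.77), POLR1B (0.77), DDX21 (0.75), WDR43 (0.75), WDR75 (0.74), MYBBP1A (0.70), TSR1 (0.66), NIP7 (0.63), NOP2 (0.62), UTP20 (0.61), DDX10 (0.60), WDR74 (0.58) and NHP2 (0.52). Every one of these values was positive. The tests at the 4 times share the 0 h libraries, among them 2 of the 3 shallow ones, and at 36 h the number called fell from 24 to 3 without the shallow libraries.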

How the results depend on the processing

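The medians of the 41 genes kept their sign for WT and KO at 6 h and later against 0 h and for KO against WT with both other scalings, the DESeq2 Wald test, no filter, fits of the compared groups, the shallow libraries left out and the 4 libraries that stand apart left out, except KO against WT at 12 h in the last of these (-0.01, a fit chosen after seeing the data). Of 1679 alternative values for single genes, 1523 were counted as keeping their side of the threshold, 131 lost the call and 25 gained one. A change of sign was counted only where the main or the alternative value was called, and there were 0 of these. Values of the joint test, which have no direction, are among the 1679. Medians were not computed with 1 library left out. Of 362 alternative counts of members, 138 differed by over 1.5 times, and the cause was not tested. Shares of all symbols were not computed for fits of the compared groups, the DESeq2 Wald test, the replicate block or 1 library left out. They were not computed for the joint test in any alternative either.

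Without the 4 libraries that stand apart, 19 members were lower in WT at 6 h, 24 lower in KO at 12 h and 18 at 24 h. KO against WT gave 13 lower at 0 h, 26 higher at 6 h, 4 at 24 h and 32 at 36 h, and the change differed for 25 at 6 h, 18 at 24 h and, jointly, 35. The steps in WT gave 33 lower from 6 to 12 h (8.57% of all symbols in that fit), 6 lower from 12 to 24 h (7.12%) and 3 higher from 24 to 36 h (4.78%). Those in KO gave 10 higher from 12 to 24 h (6.58%) and 15 higher from 24 to 36 h (5.92%). Without the 3 shallow libraries, 4 were higher in KO at 36 h, a share below the 15.7% of all symbols called higher in that fit. KO against WT then gave 1 lower at 0 h (1.53%) and 11 higher at 36 h (4.10%). The change differed for 3 at 6 h (0.885%), 0 at 24 h (1.06%), 3 at 36 h (1.74%) and 1 jointly. From 12 to 24 h 1 was higher in KO (5.78%).

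Fits of the compared groups alone gave 19 lower in WT at 6 h, 12 lower at 0 h, 2 higher at 24 h and 31 at 36 h in KO against WT, 24 for the change to 6 h, 2 for that to 24 h, and steps of 31 (WT, 6 to 12 h), 2 and 1 (WT, later), 16 (KO, 6 to 12 h), 0 and 2 (KO, later). The DESeq2 Wald test gave 18, 2 and 13 for the change to 6, 12 and 24 h, and steps of 8 (WT, 6 to 12 h), 3 (WT, 24 to 36 h) and 3 (KO, 24 to 36 h). DESeq2 size factors gave 12 and 5 for the change to 6 and 24 h (1.93% and 2.02% of all symbols). They gave 6 for WT from 6 to 12 h (3.83%). Upper-quartile factors gave 5 for the change to 24 h (2.11%) and 19 jointly. Their steps were 5 for WT from 6 to 12 h (2.98%), 1 for WT from 24 to 36 h (3.86%) and 4 for KO from 12 to 24 h (8.31%). They shifted the median of all symbols by -0.12 to 0.12. With no filter the change differed for 16, 4 and 13 at 6, 12 and 24 h (0.889%, 0.887% and 1.10%) and 22 jointly. Steps in WT were then 22 from 6 to 12 h (2.61%), 2 from 12 to 24 h (2.65%) and 1 from 24 to 36 h (2.05%). Those in KO were 5 from 12 to 24 h (2.70%) and 3 from 24 to 36 h (1.85%).

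Leaving out 1 library at a time gave 7 to 11 lower in WT at 6 h and 21 to 30 at 36 h, 4 to 19 lower in KO at 12 h, 4 to 11 at 24 h, and 4 to 8 higher in KO at 36 h. KO against WT gave 1 to 2 lower at 0 h, and 2 to 14, 3 to 13 and 10 to 20 higher at 6, 24 and 36 h. The change differed for 5 to 16, 1 to 2, 0 to 15 and 12 to 22 members at 6, 12, 24 and 36 h, and jointly for 4 (without KO 0 h replicate 2) to 21 (without KO 12 h replicate 1). Steps ranged over 5 to 10, 1 to 2 and 1 to 2 in WT and 16 to 31, 1 to 11 and 0 to 3 in KO. WT 36 h replicate 2 gave the lowest counts at 36 h (21 lower in WT, 10 higher in KO against WT, 12 for the change), KO 6 h replicate 1 the lowest at 6 h (2), KO 12 h replicate 3 the lowest in KO at 12 h (4), and WT 24 h replicate 3 the highest at 24 h (13, and 15 for the change).

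The main fit did not pair libraries by the numbers in their titles. By these numbers 1 of 12 pairs had a correlation of deviations over 0.1 (-0.015 to 0.126), and low correlations cannot exclude pairing. That pair was number 12 at 24 h, the library that stands apart in both genotypes. At 0 h number 2 was the shallow library in both genotypes. With a replicate block, KO against WT gave 11 lower at 0 h and 22, 5 and 10 higher at 6, 12 and 24 h. It also gave 1 lower at each of 6, 12 and 24 h. The 3 shallow libraries lie at 0 and 36 h, and whether depth limits the counts there was not tested.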
